A study of Mus musculus with 30 samples.

Results

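Livers of 5 vehicle-treated mice on CD-HFD, a high-fat diet lacking choline, were compared with livers of 5 mice fed chow, on 10 of the 30 arrays of the series. The members were chosen by their titles. Veh_low marks vehicle mice on CD-HFD without hepatocellular carcinoma (HCC), and these titles do not mention fibrosis. Hlth marks chow controls, whose treatment is also given as vehicle and whose livers are called healthy. The vehicle livers are called chronically damaged. A further 4 vehicle mice on the same diet that developed HCC and fibrosis (Veh_high) are used below where a difference from them was tested. The 16 mice on CD-HFD that received sulindac or aspirin with clopidogrel entered the fit and give no result here. Each array holds RNA from the non-tumour liver of 1 mouse. Strain, sex, age, weeks on the diet, array batch and hour of collection were not given in the sources used here.

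Choline is needed to make phosphatidylcholine, the surface lipid of the very low density lipoprotein (VLDL) particles in which hepatocytes export fat. Feeding fat without choline therefore leads to lipid storage in hepatocytes, steatohepatitis and, in some animals, tumours. In fatty liver, hepatocytes are known to take up more fatty acid under the nuclear receptor PPAR-gamma, resident Kupffer cells are partly replaced by macrophages derived from monocytes, and stellate cells lay down matrix. The comparison asks which of these programmes are seen in livers of mice that had the diet and are labelled as without HCC.

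The median intensity of an array lay between 24.09 and 24.59, and pairs of the 10 arrays correlated between 0.977 and 0.996 across probe sets. The deposited values were quantile normalized, which brings array medians together in advance, so these values do not speak to the tissue. By hepatocyte genes the arrays read as liver. Alb, which encodes albumin, averaged 13.53 ± 0.01 log2 intensity (SD, n = 5) in chow livers and 13.55 ± 0.03 (n = 5) in vehicle livers. Among 26 measured hepatocyte identity genes the median log2 difference, vehicle without HCC minus chow, was 0.003. Every gene value below is a log2 intensity, and every difference is a log2 difference with that sign. Across the 10 mice Xist, the RNA of the inactive X chromosome, lay between 4.55 and 4.82 and the Y-linked gene Kdm5d between 5.97 and 6.34. In every mouse Xist thus lay below the median gene mean of 4.90 and Kdm5d above it, so these genes did not divide the mice by sex.

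Of the 10 arrays, 4 lay nearer the other group than their own, and this bears on every comparison below. Each array was correlated with the mean of the rest of its group and with the mean of the other group over 8549 brighter genes, after centring on the middle of the group means. The chow mouse Hlth_1798 correlated at -0.67 with its own group and -0.038 with the vehicle group. The corresponding values were -0.599 and -0.197 for Hlth_1807, -0.394 and -0.207 for Veh_low_794, and -0.43 and -0.157 for Veh_low_1819. Veh_low_1810 lay near equality, at -0.296 and -0.311, and the other 5 arrays lay clearly nearer their own group. All correlations were negative, so nearer means less negative here. None of the 4 arrays correlated positively with the other group. These 4 arrays were picked on their measured values, so the values given without them, from 3 and 3 mice, are descriptions and no test of the diet. Whether the label of any of these arrays was exchanged cannot be settled from the files, and the groups follow the labels throughout. In lists of values below, the chow mice come in the order Hlth_1798, Hlth_1807, Hlth_1804, Hlth_1965 and Hlth_1968, and the vehicle mice in the order Veh_low_794, Veh_low_1819, Veh_low_1810, Veh_low_1825 and Veh_low_2091, so that the 2 displaced arrays of each group come first.

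**Figure D1:**
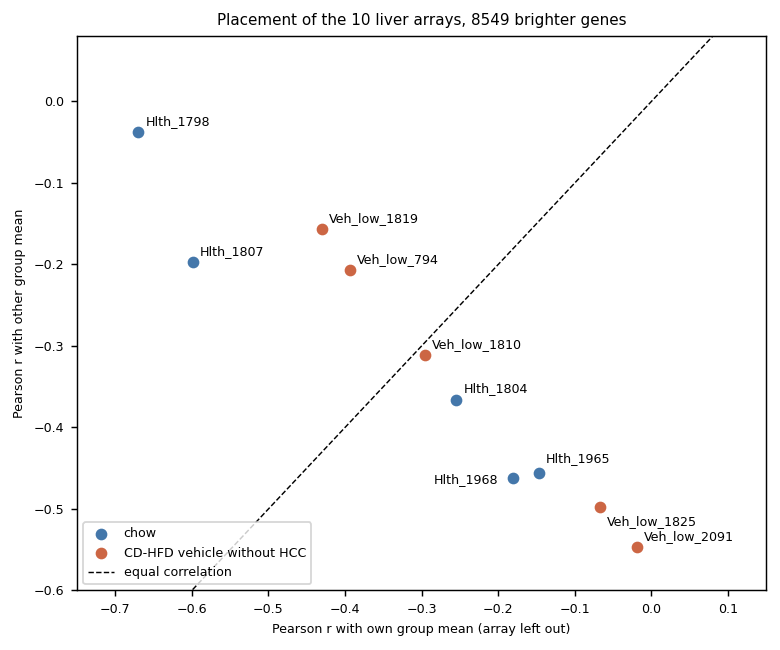
Pearson correlation of each array with the mean of its own group without it (horizontal) and with the mean of the other group (vertical), across 8549 genes at or above the median gene mean. Arrays above the dashed line lie nearer the other group, and these are Hlth_1798, Hlth_1807, Veh_low_794 and Veh_low_1819.

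No gene passed an adjusted p of 0.05 in limma's moderated test among 17097 genes (0.0% called), and the smallest adjusted p was 0.1419. At an unadjusted p under 0.05, 909 genes (5.32%) differed where 855 would with no change. Of these, 572 (3.35% of all genes) were higher and 337 (1.97%) lower in vehicle livers, so 62.9% were higher. That split depends on scaling: with each array set to an equal 75th percentile it was 270 higher and 587 lower, or 31.5% higher. The values of the 5 and 5 mice did not overlap for 88 genes that were higher (0.515%) and 47 that were lower (0.275%). The median standard error of a difference was 0.0757, and the median difference over all genes was 0.0067. Of all genes 9175 were higher and 7922 lower by any amount, and counts of higher and lower list members are to be read beside that split. It too depends on scaling, since the median over all genes was -0.025 with an equal 75th percentile. Without the 4 arrays, 327 genes (1.91%) were higher and 178 (1.04%) lower at an adjusted p under 0.05. Of the 909 genes, 888 kept their direction there. The arrays that remain are among the 10 that picked these genes, and the 4 were left out on their values. The shared direction was therefore largely fixed in advance and is no support for these genes. Because no gene passed with all 10 mice, the genes below are described as higher or lower by their values. Counts of list members at an unadjusted p under 0.05 are to be read beside the 3.35% of all genes that were higher and the 1.97% that were lower. Lists are described by the median difference of their members, with its lowest and highest value in parentheses when each of the 10 mice was left out in turn. Of 23 lists with a median under 0.05 in size, 16 turned sign in at least 1 of these settings. Of the other 25 lists, 8 turned or reached 0 without 1 mouse.

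**Figure D2:**
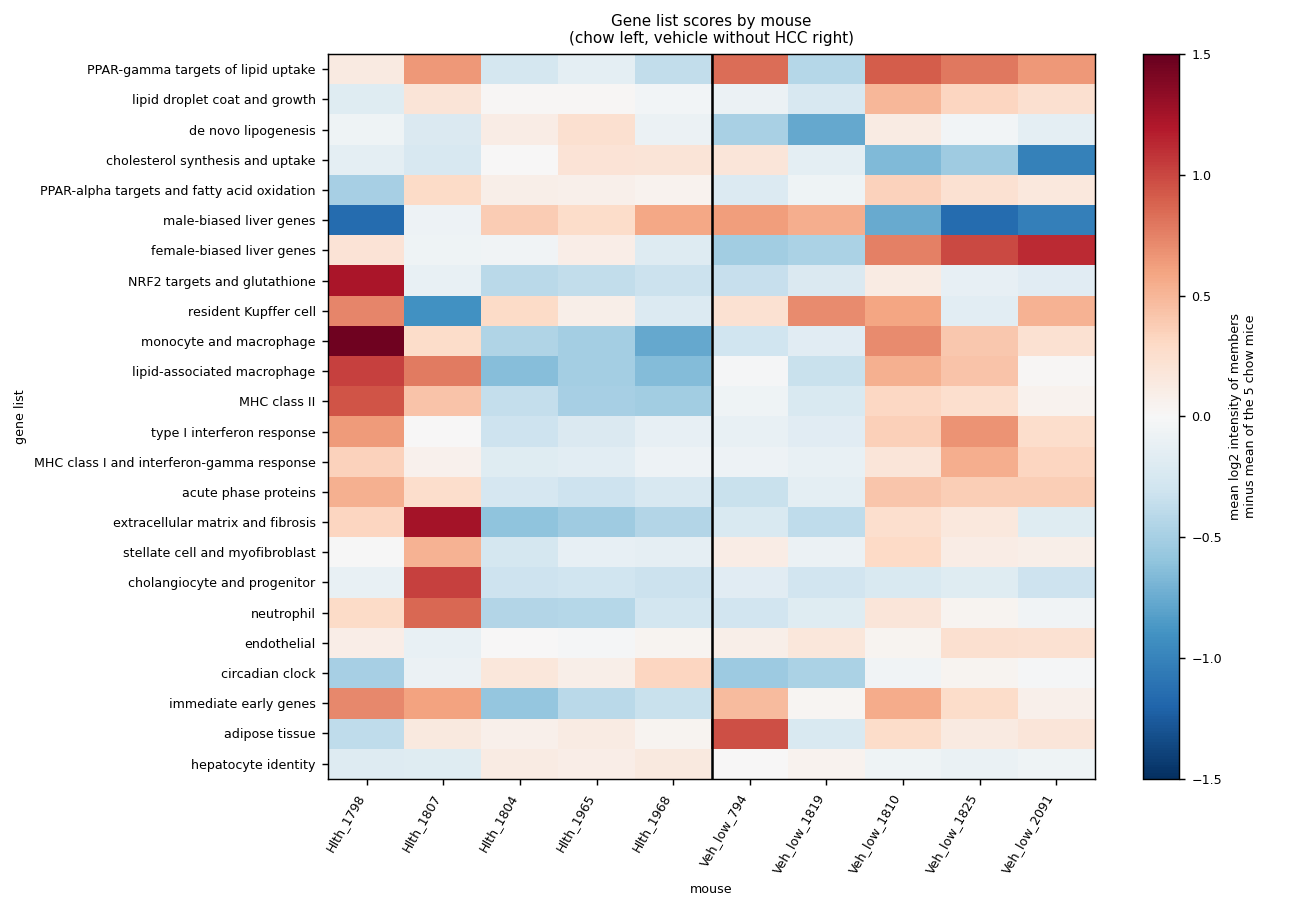
Scores of 24 gene lists in each of the 10 mice: the mean log2 intensity over a list's members minus the mean of the 5 chow mice. Red is above and blue below the chow mean, and the 2 left columns of each group are its displaced arrays. Hlth_1798 scored 1.46 for monocyte and macrophage genes and Hlth_1807 scored 1.25 for matrix genes, both above every vehicle mouse.

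Genes of lipid uptake under PPAR-gamma were higher in vehicle livers in all 12 measured members of the list (14 listed), with a median of 0.58 (0.40 without Veh_low_794 to 0.81 without Veh_low_1819). At an unadjusted p under 0.05, 2 were higher and 0 lower, against 3.35% and 1.97% of all genes. Pparg, which encodes the receptor, read 6.68, 6.96, 6.59, 6.80 and 6.24 in the chow mice and 7.42, 6.64, 7.26, 7.72 and 6.85 in the vehicle mice, a difference of 0.53 (SE 0.205, adjusted p = 0.862). The groups overlapped, since Veh_low_1819 at 6.64 lay inside the chow range. Fabp4, a fatty acid carrier and classical PPAR-gamma target, read 9.20, 8.76, 6.82, 7.20 and 6.91 in chow and 10.53, 6.66, 9.28, 9.35 and 9.13 in vehicle livers. Its difference was 1.22 (SE 0.5, adjusted p = 0.904), and it was 2.28 without the 4 arrays, because Hlth_1798 and Hlth_1807 reached vehicle levels and Veh_low_1819 lay below every chow mouse. Lpl, lipoprotein lipase, read 10.81, 10.24, 7.27, 8.01 and 6.79 in chow and 10.05, 8.97, 9.99, 9.65 and 9.01 in vehicle livers, a difference of 0.91 (SE 0.537, adjusted p = 0.953). Hlth_1798 and Hlth_1807 exceeded every vehicle mouse, and the other chow mice lay below every vehicle mouse. Mogat1, which makes diacylglycerol from monoacylglycerol, was high in only 3 vehicle mice: it read 4.89, 5.38, 4.98, 4.95 and 4.71 in chow and 4.36, 4.31, 6.76, 6.40 and 6.25 in vehicle livers, a difference of 0.64 (SE 0.371, adjusted p = 0.953).

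Adipose tissue markers accompanied part of this list. Adipoq, the fat cell hormone adiponectin and a member of the list, read 8.27, 4.29, 4.38, 4.30 and 4.45 in the vehicle mice and 4.36, 4.33, 4.38, 4.41 and 4.36 in the chow mice, so it stood out in Veh_low_794 alone. Of 8 measured adipose markers (11 listed), 6 were higher, the scores were -0.38, 0.15, 0.08, 0.12 and 0.04 in chow and 0.97, -0.22, 0.27, 0.14 and 0.18 in vehicle livers, and Veh_low_794 also had the highest Fabp4. Without Veh_low_794 the Fabp4 difference was 0.83 and the median of the list 0.40. The part of adipose RNA in the list's difference was not tested further. Cidea, a droplet gene given below, is also among the adipose markers. It was lowest in Hlth_1798 and Veh_low_1819, the mice with the lowest adipose scores, so these scores are not particular to adipose tissue.

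Lipid droplet genes were higher in 16 of 22 measured members, with a median of 0.08 (0.07 without Hlth_1798 to 0.16 without Veh_low_1819) and 2 higher and 0 lower at an unadjusted p under 0.05. Plin2, the coat protein that covers hepatocyte lipid droplets, read 12.28, 12.40, 11.73, 11.81 and 11.64 in chow and 12.06, 12.11, 12.39, 12.37 and 12.32 in vehicle livers, a difference of 0.28 (SE 0.114, adjusted p = 0.902). The 3 chow mice other than Hlth_1798 and Hlth_1807 lay below every vehicle mouse, and the 2 displaced chow mice lay within or above the vehicle range. Hsd17b13, a droplet enzyme of hepatocytes, averaged 11.60 ± 0.13 (SD, n = 5) in chow and 11.78 ± 0.15 (n = 5) in vehicle livers, a difference of 0.18 (SE 0.078, adjusted p = 0.917). Cidea, which fuses droplets in steatotic liver, read 6.16, 9.89, 8.69, 9.15 and 8.36 in chow and 9.46, 6.76, 10.55, 9.92 and 10.11 in vehicle livers. It was lowest in Hlth_1798 and Veh_low_1819, and its difference was 0.91 (SE 0.832, adjusted p = 0.983).

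Cholesterol synthesis and uptake genes were lower in 18 of 19 measured members (24 listed). Their median was -0.38 (-0.55 without Veh_low_794 to -0.25 without Veh_low_2091). At an unadjusted p under 0.05, 3 were lower and 0 higher, against 1.97% and 3.35% of all genes. Sqle, squalene epoxidase, read 8.96, 8.69, 8.88, 9.13 and 9.11 in chow and 9.01, 8.52, 7.50, 7.36 and 4.87 in vehicle livers, a difference of -1.50 (SE 0.675, adjusted p = 0.923). The chow values lay within a narrow band, while Veh_low_2091 read 4.87 and Veh_low_794 was at the chow level. Msmo1, a sterol demethylation enzyme, read 10.90, 10.77, 11.01, 11.16 and 11.21 in chow and 11.26, 10.66, 10.09, 10.24 and 9.62 in vehicle livers, and Cyp51, the lanosterol demethylase, read 9.63, 9.52, 9.59, 9.64 and 9.90 and 10.06, 9.92, 8.54, 8.74 and 7.60. Their differences were -0.64 (SE 0.251, adjusted p = 0.886) and -0.68 (SE 0.414, adjusted p = 0.953). Srebf2, the transcription factor that drives this pathway, averaged 6.13 ± 0.26 (SD, n = 5) in chow and 5.80 ± 0.17 (n = 5) in vehicle livers, a difference of -0.33 (SE 0.153, adjusted p = 0.923). In all of Sqle, Msmo1 and Cyp51 the 3 vehicle mice that lay nearer their own group were below every chow mouse. The sterol regulatory element core TCACNCCAC, searched on both strands, was found in the promoter window of 1 of 15 listed genes with a RefSeq promoter (6.67%), and in 1.44% of 27025 genes.

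Lipogenesis genes were lower in 13 of 17 members with a median of -0.27 (-0.32 without Hlth_1807 to -0.15 without Veh_low_1819), with 2 lower and 0 higher at an unadjusted p under 0.05. Pklr, liver pyruvate kinase and a target of the glucose sensor ChREBP, read 9.32, 9.36, 9.40, 9.71 and 9.69 in chow and 7.56, 7.94, 9.84, 8.80 and 8.69 in vehicle livers, a difference of -0.93 (SE 0.32, adjusted p = 0.719). Thrsp, a lipogenic regulator, read 12.27, 12.34, 12.78, 12.75 and 12.65 and 11.13, 9.93, 12.47, 12.47 and 12.49, a difference of -0.86 (SE 0.372, adjusted p = 0.917). For both genes the lowest values belonged to Veh_low_794 and Veh_low_1819. Without the 4 arrays the differences were -0.49 and -0.25, and the median of the list was -0.066. Scd1, the stearoyl-CoA desaturase, lay between 12.91 and 13.29 in all 10 mice and differed by 0.14 (SE 0.105, adjusted p = 0.962). Fatty acid oxidation genes under PPAR-alpha were higher in 21 of 24 members by a small amount, with a median of 0.091 (0.0 without Hlth_1798 to 0.15 without Veh_low_794) and with 2 higher and 0 lower at an unadjusted p under 0.05. Ehhadh, the peroxisomal bifunctional enzyme, averaged 11.11 ± 0.18 in chow and 11.36 ± 0.13 in vehicle livers (SD, n = 5 each), a difference of 0.26 (SE 0.104, adjusted p = 0.899). Cpt1a, which admits fatty acids to mitochondria, differed by 0.21 (SE 0.129, adjusted p = 0.953).

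Choline and methyl-group metabolism, the pathway that the diet acts on, was split. Of 25 measured genes 16 were higher and 9 lower, with a median of 0.035 (-0.046 without Hlth_1798 to 0.075 without Hlth_1804) and with 2 higher and 0 lower at an unadjusted p under 0.05. Chkb, a choline kinase at the entry of phosphatidylcholine synthesis, read 8.01, 9.18, 8.33, 8.32 and 8.14 in chow and 8.80, 8.78, 9.07, 8.72 and 8.68 in vehicle livers, a difference of 0.41 (SE 0.142, adjusted p = 0.711). Hlth_1807 had the highest value of all 10 mice, and the other 4 chow mice lay below every vehicle mouse. Without Hlth_1807, which the values of this gene set apart, the difference was 0.61 (limma adjusted p = 0.0392), which is a description and not a test. Cbs, which withdraws homocysteine from the methionine cycle, read 9.87, 9.19, 9.65, 9.65 and 9.82 and 10.52, 10.53, 9.46, 9.76 and 10.25, a difference of 0.47 (SE 0.168, adjusted p = 0.778). VLDL and apolipoprotein genes had a median of 0.022 with 12 of 18 higher.

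Bile acid and drug metabolism genes differed in both directions. Cyp7a1, the rate-limiting enzyme of bile acid synthesis, read 6.58, 8.94, 10.96, 10.55 and 11.61 in chow and 8.45, 8.0, 8.18, 9.34 and 9.62 in vehicle livers, a difference of -1.01 (SE 0.717, adjusted p = 0.96). The chow mice spanned 6.58 to 11.61 and so enclosed every vehicle mouse. Cyp7b1, the oxysterol hydroxylase of the alternative pathway, averaged 11.44 ± 0.54 in chow and 11.24 ± 0.71 in vehicle livers (SD, n = 5 each), a difference of -0.20 (SE 0.384, adjusted p = 0.991) that was -1.01 without the 4 arrays. Hsd3b7, a later enzyme of the pathway, differed by 0.23 (SE 0.082, adjusted p = 0.786), and Slco1a4, a bile acid and organic anion importer, by 0.79 (SE 0.358, adjusted p = 0.923). Among xenobiotic enzymes 3 of 20 were lower and 0 higher at an unadjusted p under 0.05, against 1.97% and 3.35% of all genes. Cyp1a2, the main caffeine-metabolising P450, read 11.72, 11.34, 11.90, 11.75 and 11.96 in chow and 11.76, 11.73, 10.55, 10.83 and 11.04 in vehicle livers, a difference of -0.55 (SE 0.227, adjusted p = 0.901). Its 3 vehicle mice nearer their own group lay below every chow mouse and the 2 displaced vehicle mice lay inside the chow range. Cyp2a5, which oxidises coumarin and nicotine, read 12.84, 11.95, 12.64, 12.47 and 12.54 and 11.46, 11.59, 12.15, 12.37 and 12.38, a difference of -0.50 (SE 0.224, adjusted p = 0.923).

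Liver genes known to differ between the sexes varied widely between vehicle mice. Male-biased genes were lower in 11 of 13 members, with a median of -0.20 (-0.42 without Hlth_1798 to -0.073 without Veh_low_2091). Their scores were -1.16, -0.07, 0.38, 0.28 and 0.58 in chow and 0.62, 0.55, -0.76, -1.16 and -1.02 in vehicle livers, so Hlth_1798 scored with the 3 low vehicle mice, while Veh_low_794 scored above every chow mouse and Veh_low_1819 above every chow mouse but Hlth_1968. Slco1a1, a male-biased organic anion transporter, read 5.07, 10.04, 11.19, 11.05 and 11.38 in chow and 11.56, 11.49, 7.40, 5.11 and 5.97 in vehicle livers, a difference of -1.44 (SE 1.521, adjusted p = 0.989). Female-biased genes were higher in 11 of 14 members, with a median of 0.11 (0.01 without Hlth_1798 to 0.20 without Veh_low_794). Their scores had an SD of 0.156 among chow and 0.809 among vehicle mice (n = 5 each), and the group means differed by 0.372. Cyp2b9, a female-predominant P450, read 9.52, 5.66, 6.38, 6.48 and 5.57 in chow and 4.14, 4.69, 9.78, 10.80 and 10.79 in vehicle livers, a difference of 1.32 (SE 0.941, adjusted p = 0.96) that became 4.31 without the 4 arrays. Cyp17a1, a steroid hydroxylase, read 6.77, 5.17, 5.43, 6.25 and 6.03 and 5.04, 4.56, 9.11, 9.22 and 9.52, a difference of 1.56 (SE 0.976, adjusted p = 0.953). These 2 genes reached at least 9.11 in the 3 vehicle mice nearer their own group and stayed at or below 5.04 in the 2 displaced ones.

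Kupffer cell genes were higher in 14 of 17 measured members, with a median of 0.36 (0.031 without Hlth_1807 to 0.54 without Hlth_1798). At an unadjusted p under 0.05, 3 were higher and 0 lower, against 3.35% and 1.97% of all genes. Hlth_1807 had the lowest score of the 10 mice, at -0.913, and without it most of the list's difference was gone. In whole liver, fewer cells of a type and less RNA per cell cannot be told apart. The largest difference belonged to Id1, a transcriptional inhibitor induced by bone morphogenetic proteins through SMAD factors in several liver cell types. Id1 read 8.12, 7.28, 7.53, 7.18 and 6.28 in chow and 9.24, 9.69, 8.75, 7.86 and 9.18 in vehicle livers, a difference of 1.67 (SE 0.451, adjusted p = 0.436). The groups overlapped only between Hlth_1798 at 8.12 and Veh_low_1825 at 7.86, and the difference was 1.60 without the 4 arrays. Id3, its relative, read 10.26, 9.71, 10.29, 10.38 and 9.43 and 10.74, 11.14, 10.19, 9.84 and 10.75, a difference of 0.52 (SE 0.221, adjusted p = 0.905), and Smad7, another early target of SMAD signalling, differed by 0.41 (SE 0.145, adjusted p = 0.738). Clec4f, a lectin specific to Kupffer cells, read 10.72, 6.36, 9.20, 9.13 and 8.51 in chow and 9.02, 9.44, 9.48, 8.94 and 9.76 in vehicle livers, so its highest and its lowest value were both from chow mice, and it differed by 0.54 (SE 0.488, adjusted p = 0.982). Cd5l, a lipid-handling protein secreted by Kupffer cells, differed by 0.58 (SE 0.31, adjusted p = 0.923), and Clec1b, a Kupffer and platelet lectin, by 0.71 (SE 0.485, adjusted p = 0.96).

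Genes of monocytes and macrophages were higher in 24 of 30 members, with a median of 0.19 (-0.013 without Hlth_1968 to 0.60 without Hlth_1798), and none reached an unadjusted p under 0.05. The scores were 1.46, 0.27, -0.45, -0.51 and -0.77 in chow and -0.30, -0.17, 0.71, 0.40 and 0.23 in vehicle livers, so the highest score of all belonged to the chow mouse Hlth_1798. Mpeg1, perforin-2 of macrophages, read 11.14, 10.29, 8.90, 8.76 and 8.80 in chow and 9.27, 9.41, 10.74, 10.38 and 10.21 in vehicle livers, a difference of 0.43 (SE 0.354, adjusted p = 0.98). Adgre1, a surface receptor of macrophages, read 9.10, 6.13, 6.47, 6.72 and 6.27 and 6.87, 7.23, 8.50, 7.76 and 7.74, a difference of 0.68 (SE 0.505, adjusted p = 0.96). Without the 4 arrays all 30 members of the list were higher, with a median of 1.06, whereas the sign of the median turned without Hlth_1968 alone. Genes listed for macrophages that gather around lipid, marked by Trem2, followed the same arrangement. Of 18 members 11 were higher, with a median of 0.11 (-0.051 without Hlth_1968 to 0.18 without Hlth_1807). Without the 4 arrays 17 were higher, with a median of 0.70. The median turned below 0 without Hlth_1804, Hlth_1968 or Veh_low_1810. The list also holds Fabp4, Lpl and Plin2, given above with lipid uptake and droplet genes, so it is not particular to macrophages. Trem2 itself lay close to the dim end in 9 mice and was highest in Hlth_1798, with 5.93, 4.85, 4.45, 4.60 and 4.60 in chow and 4.49, 4.49, 4.68, 5.07 and 4.49 in vehicle livers. MHC class II genes, which present antigen to helper T cells, had a median of 0.019 (-0.058 without Hlth_1965 to 0.31 without Hlth_1798). H2-Aa, a class II chain, read 9.92, 9.71, 7.50, 6.82 and 7.30 in chow and 8.48, 8.09, 9.0, 9.11 and 8.50 in vehicle livers, a difference of 0.39 (SE 0.456, adjusted p = 0.989) that was 1.67 without the 4 arrays.

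Scores of matrix and fibrosis genes overlapped between the groups. Of 36 measured members 15 were higher and 21 lower, with a median of -0.02 (-0.14 without Hlth_1804 to 0.15 without Hlth_1807), and 0 were higher and 2 lower at an unadjusted p under 0.05. Scores were 0.33, 1.25, -0.60, -0.54 and -0.44 in chow and -0.23, -0.38, 0.26, 0.15 and -0.18 in vehicle livers, and the highest was that of the chow mouse Hlth_1807. Col1a1, the main fibrillar collagen of scars, read 4.76, 5.13, 4.31, 4.31 and 4.40 in chow and 4.30, 4.22, 4.68, 4.45 and 4.24 in vehicle livers, a difference of -0.20 (SE 0.127, adjusted p = 0.953). Only Hlth_1807 lay above the median gene mean of 4.90, so Col1a1 was read near the dim end. Col14a1, a fibril-associated collagen, read 9.02, 9.39, 7.77, 7.88 and 7.93 and 8.25, 8.20, 9.63, 9.13 and 9.01, a difference of 0.45 (SE 0.268, adjusted p = 0.953). Without the 4 arrays 34 matrix genes were higher, with a median of 0.36. Col27a1, a fibrillar collagen known mainly from cartilage, was among the 10 genes with the largest lower difference. It read 5.72, 7.76, 9.06, 8.78 and 9.06 in chow and 7.04, 6.79, 6.96, 7.81 and 6.84 in vehicle livers, so the lowest value was that of Hlth_1798, and it differed by -0.99 (SE 0.473, adjusted p = 0.923).

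Stellate cell genes were higher in 14 of 20 members, with a median of 0.088 (0.051 without Hlth_1804 to 0.18 without Hlth_1807). Colec11, a collectin of stellate cells, read 8.18, 8.44, 7.06, 7.66 and 7.77 in chow and 7.67, 7.88, 8.90, 8.51 and 8.58 in vehicle livers, a difference of 0.49 (SE 0.21, adjusted p = 0.917). Colec10, a related liver collectin, read 6.54, 5.97, 7.71, 7.34 and 7.52 and 7.66, 7.85, 8.05, 7.77 and 8.08, a difference of 0.87 (SE 0.227, adjusted p = 0.436), and only Hlth_1804 at 7.71 exceeded the lowest vehicle mouse. Cholangiocyte genes were lower in 14 of 16 members, with a median of -0.19 (-0.31 without Hlth_1804 to 0.002 without Hlth_1807), and Hlth_1807 alone stood apart: its score was 1.03, while the other 9 mice lay between -0.32 and -0.11. Epcam, a surface protein of bile duct and progenitor cells, read 4.93, 8.11, 4.73, 4.86 and 4.95 in chow and 4.94, 4.91, 5.05, 4.96 and 4.90 in vehicle livers. Krt19, a duct keratin, read 4.47, 6.03, 4.23, 4.29 and 4.32 and 4.37, 4.31, 4.17, 4.43 and 4.34. The difference of Epcam was -0.56 (SE 0.4, adjusted p = 0.96) and it was 0.085 without Hlth_1807. The same mouse had the highest S100a8, a neutrophil calprotectin subunit, at 8.75 against 4.37 to 5.41 in the other chow mice.

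Among type I interferon response genes, vehicle livers were higher for 27 of 35 measured members (40 listed). The median was 0.17 (0.047 without Veh_low_1825 to 0.35 without Hlth_1798). At an unadjusted p under 0.05, 5 were higher and 0 lower, against 3.35% and 1.97% of all genes. Without the 4 arrays 31 were higher, with a median of 0.51. Interferon receptors act through the factor complex ISGF3, which binds the interferon-stimulated response element. Its core, searched as the 9 letters GAAANNGAA on both strands with overlaps allowed, was looked for in the RefSeq promoters of assembly GRCm38.p6, from 250 bases before to 50 after each start site, and a match describes letters only. It was found in 12 of the 23 list members that have a promoter in that table (52.2%), and in 2638 of 27025 genes (9.76%). A stricter form with 1 more A at its end, which was searched first, was found in 11 members (47.8%) and in 1079 genes (3.99%). The 250 bases before the start site are printed for 3 members whose values are given next, in lower case with each match in capitals (a match on the opposite strand appears as TTCNNTTTC):
Ifit3, chr19:34583279-34583528, plus strand: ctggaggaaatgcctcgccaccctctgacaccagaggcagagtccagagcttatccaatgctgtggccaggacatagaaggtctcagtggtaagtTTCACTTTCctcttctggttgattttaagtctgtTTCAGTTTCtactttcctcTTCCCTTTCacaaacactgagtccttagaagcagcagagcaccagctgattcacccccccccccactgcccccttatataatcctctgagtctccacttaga
Ifit1, chr19:34640639-34640888, plus strand: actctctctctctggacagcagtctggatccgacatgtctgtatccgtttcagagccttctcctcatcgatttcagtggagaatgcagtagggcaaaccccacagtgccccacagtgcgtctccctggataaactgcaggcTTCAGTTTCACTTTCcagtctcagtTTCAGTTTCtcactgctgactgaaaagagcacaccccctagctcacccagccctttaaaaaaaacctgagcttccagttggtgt
Rsad2, chr12:26456453-26456702, minus strand: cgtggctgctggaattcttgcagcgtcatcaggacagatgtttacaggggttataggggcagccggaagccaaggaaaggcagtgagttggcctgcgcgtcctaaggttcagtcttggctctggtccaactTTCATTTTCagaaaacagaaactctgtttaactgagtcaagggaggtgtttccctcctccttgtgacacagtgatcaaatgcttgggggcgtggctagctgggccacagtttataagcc

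The Ifit3 and Ifit1 windows hold 3 matches each, a pair of them overlapping in Ifit1, and the Rsad2 window holds 1. Ifit3, which binds viral RNA with its family members, read 7.34, 6.62, 5.34, 5.77 and 5.72 in chow and 6.06, 5.85, 7.93, 8.38 and 7.53 in vehicle livers, a difference of 0.99 (SE 0.422, adjusted p = 0.905). Ifit1, the sensor of uncapped viral RNA, read 5.52, 4.91, 4.78, 4.96 and 4.72 and 5.09, 4.50, 5.90, 7.12 and 5.66, a difference of 0.67 (SE 0.339, adjusted p = 0.923). Rsad2, the antiviral enzyme viperin, read 9.74, 7.18, 5.78, 6.25 and 5.94 and 7.48, 6.37, 8.53, 8.68 and 8.07, a difference of 0.85 (SE 0.584, adjusted p = 0.96). For all 3 genes the vehicle mice nearer their own group exceeded the 3 chow mice nearer theirs, and Veh_low_794 and Veh_low_1819 lay below the other vehicle mice. Hlth_1798 had the highest Rsad2 of all 10 mice. Ifi204, an interferon-inducible DNA sensor, differed by 0.44 (SE 0.15, adjusted p = 0.711).

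Among genes of MHC class I and the interferon-gamma response 18 of 26 were higher, with a median of 0.076 (0.029 without Hlth_1965 to 0.14 without Hlth_1798). At an unadjusted p under 0.05, 3 were higher and 0 lower, against 3.35% and 1.97% of all genes. Iigp1, an immunity-related GTPase, read 11.36, 11.02, 11.34, 11.18 and 11.35 in chow and 11.51, 11.47, 11.44, 11.56 and 11.53 in vehicle livers without overlap, a difference of 0.26 (SE 0.064, adjusted p = 0.436). Irgm2, another GTPase of this family, read 8.22, 7.77, 7.87, 8.08 and 8.41 and 8.50, 8.66, 8.27, 9.12 and 8.91, a difference of 0.62 (SE 0.188, adjusted p = 0.613) that was 0.64 without the 4 arrays. Unlike for Ifit3, the lowest vehicle mouse for both GTPase genes was Veh_low_1810, and not Veh_low_794 or Veh_low_1819. For Irgm2, Veh_low_794 and Veh_low_1819 still lay below Veh_low_1825 and Veh_low_2091. Gbp10, a guanylate-binding protein gene, differed by 0.85 (SE 0.347, adjusted p = 0.899), and Cxcl9, a T cell attracting chemokine, by 0.79 (SE 0.467, adjusted p = 0.953). T and NK cell genes had a median of 0.029, with 2 higher and 1 lower at an unadjusted p under 0.05 of 31. Their middle member averaged 4.52, below the median gene mean of 4.90, so this small median says little.

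**Figure D3:**
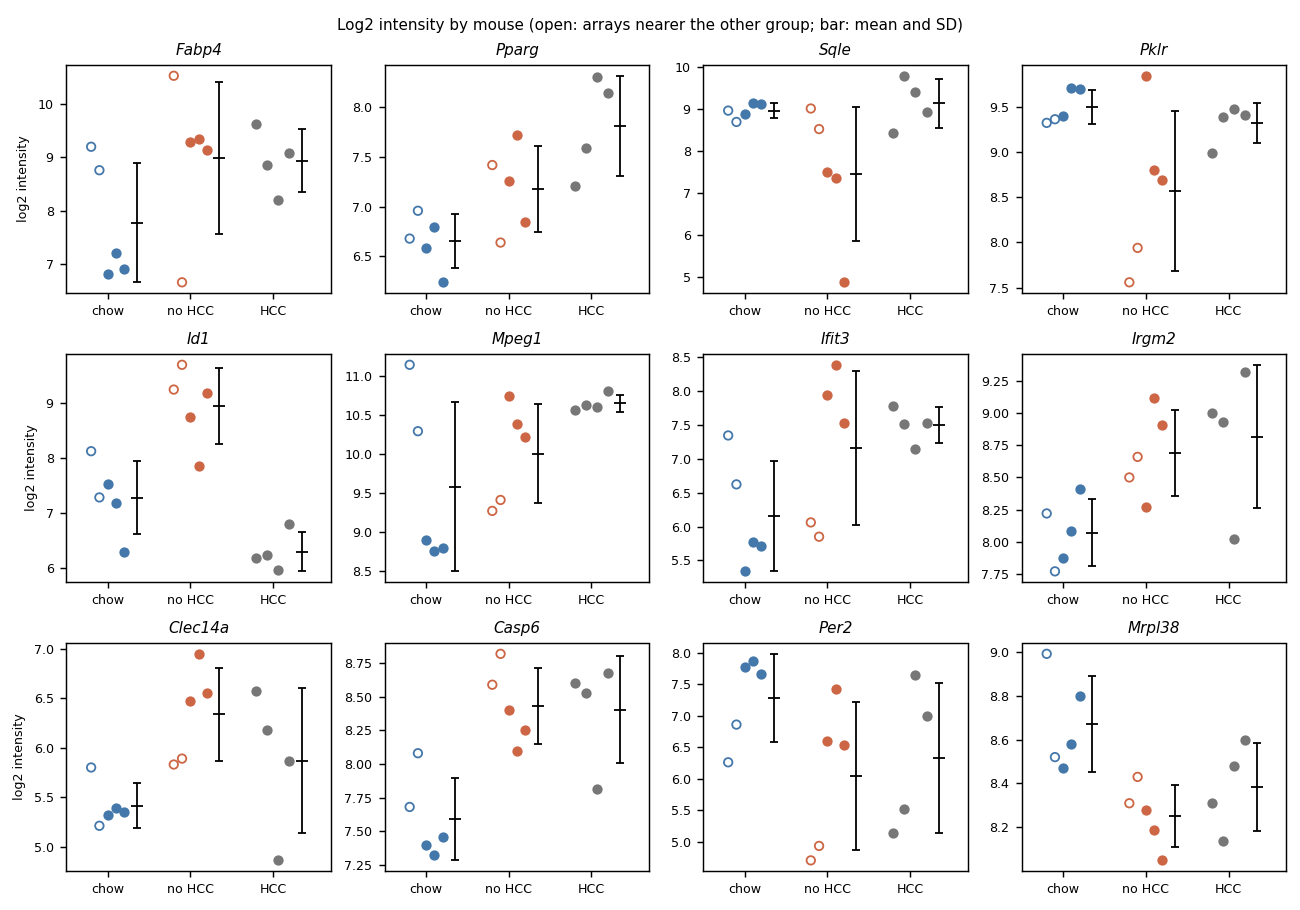
Log2 intensity of 12 genes in each mouse of the chow group, the vehicle group without HCC and the vehicle group with HCC. Open points are the 4 arrays nearer the other group, and bars give the mean and SD of all mice of a group. Casp6, Clec14a and Mrpl38 do not overlap between the first 2 groups, and the mean of Id1 is lowest in the HCC group.

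Endothelial genes were higher in 19 of 26 members, with a median of 0.10 (0.10 without Veh_low_1825 to 0.21 without Veh_low_1810). Of them 5 (against 3.35% of all genes) were higher and 0 lower at an unadjusted p under 0.05. Clec14a, a vascular lectin outside that list, read 5.80, 5.21, 5.32, 5.39 and 5.35 in chow and 5.83, 5.89, 6.47, 6.95 and 6.55 in vehicle livers without overlap, a difference of 0.92 (SE 0.248, adjusted p = 0.436) and of 1.30 without the 4 arrays. Robo4, a receptor that steadies vessels, read 5.23, 5.19, 5.28, 5.14 and 5.34 and 5.50, 5.35, 5.56, 5.48 and 5.57, again without overlap, a difference of 0.26 (SE 0.067, adjusted p = 0.436). Egfl7, a factor secreted by endothelium, also did not overlap and differed by 0.21 (SE 0.083, adjusted p = 0.862). Plvap, the diaphragm protein of fenestrated endothelium, read 8.04, 7.53, 7.44, 7.36 and 7.51 in chow and 7.63, 8.0, 8.76, 7.97 and 8.07 in vehicle livers, a difference of 0.51 (SE 0.178, adjusted p = 0.735), with Hlth_1798 at vehicle levels.

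Acute phase protein genes were higher in 19 of 25 members, with a median of 0.10 (0.038 without Hlth_1968 to 0.16 without Hlth_1798). At an unadjusted p under 0.05, 4 were higher and 0 lower, against 3.35% and 1.97% of all genes. Lbp, which carries bacterial lipopolysaccharide, read 10.54, 9.81, 9.79, 10.00 and 9.97 in chow and 10.19, 10.54, 10.30, 10.26 and 10.56 in vehicle livers, a difference of 0.35 (SE 0.161, adjusted p = 0.923). A2m, a protease inhibitor near the dim end of the arrays, differed by 0.18 (SE 0.052, adjusted p = 0.501). Complement and coagulation genes had a median of 0.0079 with none of 31 at an unadjusted p under 0.05 in either direction. Platelet genes had a median of -0.0026, also with none of 16. The middle member of the platelet list averaged 4.72, below the median gene mean of 4.90, so its small median says little.

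Clock genes were lower in 14 of 19 measured members and higher in 5, with a median of -0.13 (-0.27 without Hlth_1798 to -0.002 without Veh_low_794) and 1 lower and 0 higher at an unadjusted p under 0.05. The 4 members with the smallest p are given here, of which 3 were higher, against the direction of most of the list. Per2, a light- and feeding-responsive repressor of the clock, read 6.26, 6.86, 7.77, 7.87 and 7.67 in chow and 4.70, 4.93, 6.60, 7.43 and 6.53 in vehicle livers, a difference of -1.25 (SE 0.534, adjusted p = 0.912). The lowest values were those of Veh_low_794 and Veh_low_1819, and without the 4 arrays the difference was -0.92. Arntl, the BMAL1 activator, read 7.10, 6.30, 6.07, 6.08 and 5.97 and 7.58, 7.16, 6.90, 7.22 and 6.90, a difference of 0.85 (SE 0.511, adjusted p = 0.953). Clock, its partner, read 7.98, 8.06, 7.77, 7.99 and 7.80 and 8.43, 8.40, 8.09, 8.12 and 8.21 without overlap, and Nfil3, a repressor of clock output, 8.0, 7.74, 7.61, 7.80 and 7.89 and 9.03, 8.53, 8.04, 8.11 and 8.35, also without overlap. Clock differed by 0.33 (SE 0.218, adjusted p = 0.96) and Nfil3 by 0.60 (SE 0.355, adjusted p = 0.953). The hour at which livers were taken was not given, so the diet and that hour cannot be told apart for these genes. Immediate early genes, which respond within minutes to handling or injury, were higher in 8 of 12 members with a median of 0.29 (0.12 without Hlth_1804 to 0.38 without Hlth_1798). Of the 12, 3 were higher and 0 lower at an unadjusted p under 0.05, against 3.35% and 1.97% of all genes. Egr1, a transcription factor and the largest higher difference among the genes named by rule, read 8.74, 8.87, 4.99, 4.98 and 6.17 in chow and 10.37, 8.02, 8.24, 8.15 and 7.38 in vehicle livers, a difference of 1.68 (SE 0.794, adjusted p = 0.923). Hlth_1798 and Hlth_1807 lay within the vehicle range, and the other chow mice lay below it. Nr4a1, a nuclear receptor of the same response, differed by 0.52 (SE 0.252, adjusted p = 0.923).

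Stress programmes had small medians: -0.073 (-0.11 without Hlth_1804 to 0.077 without Hlth_1798) for NRF2 targets, -0.036 for endoplasmic reticulum stress and 0.091 for p53 targets. NRF2 targets set Hlth_1798 apart, with a score of 1.22 against -0.41 to 0.125 in the other 9 mice. Nqo1, a quinone reductase, read 8.59, 6.43, 6.25, 6.14 and 6.10 in chow and 5.82, 5.84, 6.59, 6.74 and 6.55 in vehicle livers, and Cbr3, a carbonyl reductase, 11.16, 6.10, 5.12, 5.36 and 5.90 and 5.07, 5.14, 7.26, 5.76 and 5.25. Both genes therefore averaged lower in vehicle livers, Nqo1 by -0.39 (SE 0.344, adjusted p = 0.98) and Cbr3 by -1.03 (SE 0.922, adjusted p = 0.982), and both were higher without Hlth_1798, by 0.077 and 0.078. Cell cycle genes had a median of 0.0075, pericentral genes of -0.03 and periportal genes of 0.069. The middle cell cycle member averaged 4.65, below the median gene mean of 4.90. Respiratory chain genes had a median of 0.026, and growth hormone and IGF genes of 0.0077. Igfbp3, the main carrier of IGF1, differed by 0.75 (SE 0.325, adjusted p = 0.917), with Hlth_1807 at 7.84 and the other chow mice between 5.60 and 5.99.

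**Figure D4:**
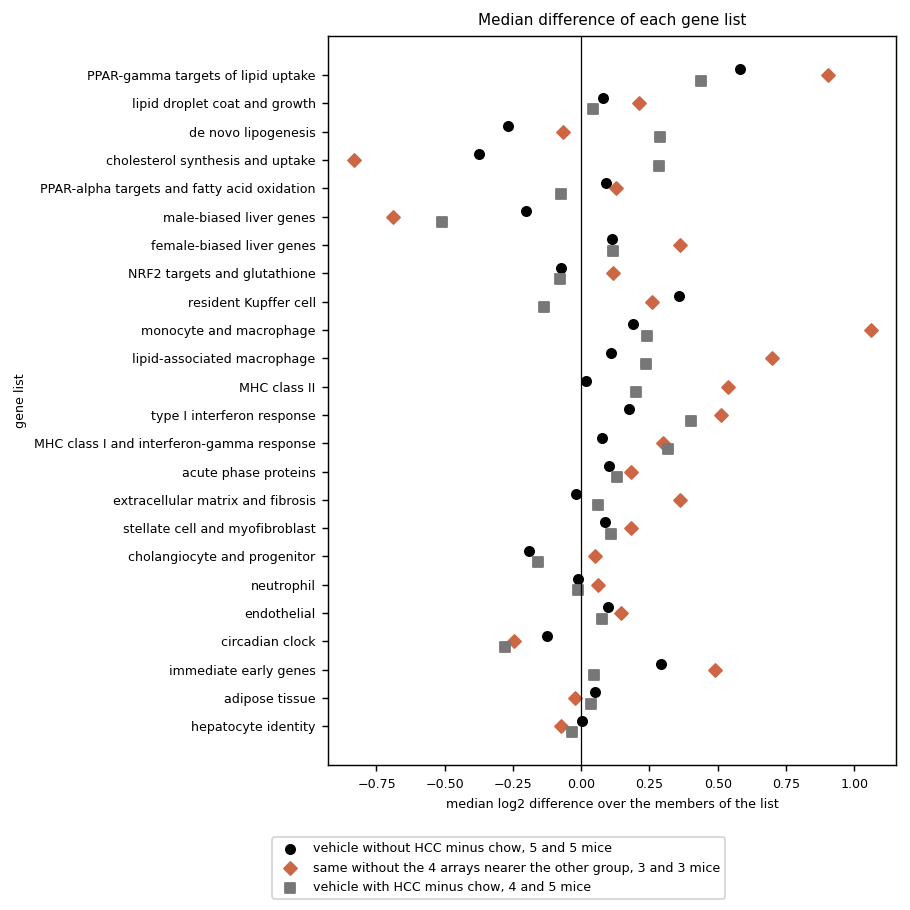
Median log2 difference over the members of 24 gene lists, for vehicle without HCC minus chow with all mice (circles), the same without the 4 arrays nearer the other group (diamonds) and vehicle with HCC minus chow (squares). The median of monocyte and macrophage genes is 0.19 with all mice and 1.06 without the 4 arrays, and that of cholesterol genes is -0.38 and -0.83, against 0.28 with HCC. The comparisons share chow mice.

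Several genes outside these lists stood apart. Casp6, an executioner caspase, read 7.68, 8.08, 7.40, 7.32 and 7.46 in chow and 8.59, 8.82, 8.40, 8.10 and 8.25 in vehicle livers, a difference of 0.84 (SE 0.202, adjusted p = 0.436) that was 0.86 without the 4 arrays. The direction was seen with 1 of its 2 probe sets. Cyp4b1, a fatty acid and xenobiotic P450, read 8.39, 6.79, 8.43, 8.12 and 8.29 and 8.75, 8.98, 8.59, 8.94 and 9.09, a difference of 0.87 (SE 0.238, adjusted p = 0.449). Mrpl38, a mitochondrial ribosomal protein gene, was lower with all 3 of its probe sets, at 8.99, 8.52, 8.47, 8.58 and 8.80 in chow and 8.31, 8.43, 8.28, 8.19 and 8.05 in vehicle livers, a difference of -0.42 (SE 0.094, adjusted p = 0.429). Arrdc2, an arrestin-domain gene, read 4.93, 4.86, 4.79, 4.97 and 5.14 and 4.53, 4.76, 4.65, 4.36 and 4.34, a difference of -0.41 (SE 0.086, adjusted p = 0.429), and Kitl, the stem cell factor, differed by -0.47 (SE 0.107, adjusted p = 0.436) with 4 of 4 probe sets lower. Lad1, which encodes ladinin, had the smallest adjusted p of all genes, differed by -0.61 (SE 0.111, adjusted p = 0.142) and overlapped between 1 vehicle mouse at 5.17 and 1 chow mouse at 5.13. Without Veh_low_1810, the vehicle mouse with that value, it was -0.71 (limma adjusted p = 0.00404), also a description. Mrpl38, Arrdc2, Kitl and Lad1 were chosen for this paragraph after their values were seen.

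The remaining genes with the largest differences at an unadjusted p under 0.05 were Tcp11l2, higher by 0.85, and Nat8f5, Hes6, Prkaa2, Neat1 and Cdcp1, lower. Prkaa2, a catalytic subunit of the energy sensor AMPK, read 9.34, 9.40, 8.78, 9.21 and 9.18 in chow and 8.53, 8.93, 9.25, 8.21 and 7.57 in vehicle livers, a difference of -0.68 (SE 0.22, adjusted p = 0.672). Veh_low_1810 at 9.25 was at the chow level and Veh_low_2091 at 7.57 was lowest. Neat1, the architectural RNA of paraspeckles, differed by -0.68 (SE 0.315, adjusted p = 0.923), with Veh_low_1810 at 10.92 and the other vehicle mice between 9.56 and 9.66. Nat8f5, an acetyltransferase family gene, differed by -0.98 (SE 0.425, adjusted p = 0.917), Hes6, a transcriptional regulator, by -0.76 (SE 0.341, adjusted p = 0.923), and Cdcp1, a transmembrane glycoprotein, by -0.65 (SE 0.178, adjusted p = 0.449).

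Vehicle mice without HCC were then set against the 4 vehicle mice with HCC, on the same diet. In that comparison 15 of 17097 genes passed an adjusted p of 0.05 in limma's test (0.0877%), and 17 passed for HCC against chow (0.0994%). Id1 read 6.18, 6.23, 5.96 and 6.79 with HCC, below the whole group without HCC, a difference (HCC minus no HCC) of -2.66 (SE 0.479, adjusted p = 0.019). Id3 read 9.72, 9.36, 8.79 and 9.17, a difference of -1.27 (SE 0.234, adjusted p = 0.0195). Both genes were thus higher than chow in mice without HCC by their values and lower with HCC than without by the test. Cry1, a repressor of the clock, read 6.76, 6.35, 5.51 and 5.55 with HCC and 7.82, 7.12, 8.50, 8.69 and 8.99 without, a difference of -2.18 (SE 0.38, adjusted p = 0.019), while its chow values were 8.33, 8.58, 8.21, 8.15 and 8.28. Fam13b did not overlap between chow at 8.25, 8.14, 8.12, 7.93 and 8.12 and vehicle without HCC at 8.56, 8.38, 8.40, 8.40 and 8.60, and was lower with HCC by -0.77 (SE 0.154, adjusted p = 0.0334). Cry1 and Fam13b were named because they passed this test.

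Of the 15 genes, only Id1, Id3 and Cry1 belong to the lists described here, so no other member of a list passed between mice with and without HCC. Sqle averaged 9.13 ± 0.59 (SD, n = 4) with HCC and 7.45 ± 1.60 (n = 5) without, a difference of 1.68 (SE 0.716, adjusted p = 0.465), with 8.43, 9.79, 9.40 and 8.92 in the single mice. The median of the cholesterol list was 0.28 for HCC against chow, beside -0.38 for no HCC against chow. Fabp4 averaged 8.94 ± 0.59 with HCC and 8.99 ± 1.42 without, and Ifit3 7.49 ± 0.27 and 7.15 ± 1.14 (n = 4 and 5), with differences of -0.05 (SE 0.531, adjusted p = 0.99) and 0.34 (SE 0.448, adjusted p = 0.901). The interferon list had medians of 0.40 and 0.17 against the same chow mice, and its scores lay between 0.31 and 0.63 in the 4 mice with HCC. Casp6 averaged 8.41 ± 0.40 with HCC and 8.43 ± 0.28 without, a difference of -0.02 (SE 0.215, adjusted p = 0.988), and Clec14a 5.87 ± 0.73 and 6.34 ± 0.47, a difference of -0.47 (SE 0.263, adjusted p = 0.642). These p-values do not show that the groups are alike, since the standard errors allow differences of the sizes given.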

How the data were processed

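RNA came from 20 mg of frozen non-tumour liver, with 1 Affymetrix HT MG-430 PM array per mouse. The authors deposited an intensity for each probe set, made with RMA and quantile normalization, per the labels and the series design text. The RMA version was not given in the sources used here. Quantile normalization removes overall shifts in RNA content. Groups follow the labels, which give 9 vehicle mice where the design text gives 4.

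Log2 of the intensity was taken here. Of 45141 probe sets, 28898 carry 1 symbol, 551 several and 15588 none, and 104 are controls. Of those with 1 symbol, 28689 matched RefSeq names through their Entrez identifier. Each of the 17097 genes was read from its brightest probe set, by mean over the 30 arrays. With limma 3.58.1 (R 4.3.3), group means of all 30 arrays were fitted (25 residual degrees of freedom), with Benjamini-Hochberg adjustment over all genes and a threshold of 0.05. Nothing in the labels names litters or cages, so mice were treated as independent, which could not be checked. The p-values set each difference against the spread within groups, pooled over all 30 arrays. Precision is limited by the number of arrays. The fit was tested on simulated data.

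The comparison, the 48 gene lists and the 4 arrays set apart were chosen with earlier results of these data known. Lists are described by counts and medians, without a set test. Named genes are the 10 largest higher and 10 largest lower differences at an unadjusted p under 0.05 with the brighter group at or above 4.90, up to 4 members of each list with the smallest p, and the defining genes Pparg, Trem2, Col1a1, Ifit1, Clec4f, Cyp7b1 and Alb, with the members of lists that check RNA quality or other tissues. Of the genes named, Cyp51, Scd1, Cpt1a, S100a8, Rsad2, Cry1, Fam13b, Nqo1, Cbr3, St6gal1, Kitl, Lad1, Mrpl38 and Arrdc2 were added after their values were seen, as were the motifs. Alternatives changed the arrays in the fit, probe sets, dim genes, prior, weights, scaling, floor and mice.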

Additional observations from a re-analysis of the deposited data

Results flagged for a closer look

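In groups of 5 mice, a value counts as far from the rest when its gap to the nearest other mouse exceeds 0.71 of the group's range (Dixon's critical value), which chance does in about 1 of 20 groups. Of 260 groups checked over 48 list scores and 82 genes, 28 held such a mouse, and Hlth_1798 accounts for 11 of them and Hlth_1807 for 7. Many of the genes were named for their values in these mice. S100a8, Nqo1, Cbr3 and St6gal1 were added after those values were seen. The count of 28 therefore cannot be set against 1 in 20.

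Hlth_1798 stood apart among chow mice in the scores of PPAR-alpha targets (-0.50), NRF2 targets (1.22), platelet genes (0.20) and adipose genes (-0.38). The adipose list also holds the droplet gene Cidea, which was lowest in this mouse. Hlth_1798 also stood apart in Cyp2b9 (9.52), Slco1a1 (5.07), Adgre1 (9.10), Lbp (10.54), Plvap (8.04), Cbr3 (11.16) and Nqo1 (8.59). Hlth_1807 stood apart in the cholangiocyte score (1.03) and in Cyp4b1 (6.79), Chkb (9.18), Epcam (8.11), Krt19 (6.03), S100a8 (8.75) and Igfbp3 (7.84).

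Among vehicle mice Veh_low_1819 stood apart in the scores of PPAR-gamma targets (-0.43) and choline genes (-0.13) and in Cidea (6.76). Veh_low_794 did so in the B cell and plasma cell score (0.45), Egr1 (10.37) and Adipoq (8.27). Veh_low_1825 did so in the sex chromosome score (0.21) and Col27a1 (7.81), Veh_low_1810 in Neat1 (10.92) and Veh_low_2091 in St6gal1 (9.08), a sialyltransferase gene.

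The difference between vehicle mice with and without HCC passed limma's adjusted threshold for Id1 (-2.66, adjusted p = 0.019), Id3 (-1.27, adjusted p = 0.0195), Cry1 (-2.18, adjusted p = 0.019) and Fam13b (-0.77, adjusted p = 0.0334). Id1 and Id3 were lower in 4 of 4 mice with HCC than in every mouse without it, as was Cry1.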

How the results depend on the processing

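Settings were changed singly. The count of genes past an adjusted p of 0.05, 0 with all mice, was 12 with array weights (9 higher and 3 lower), 1 with an equal 75th percentile per array (Lad1) and 505 once the 4 displaced arrays were left out. It was 0 to 1 when 1 mouse was left out: St6gal1 passed without Hlth_1798, Chkb without Hlth_1807 and Lad1 without Veh_low_1810, each in that setting only among those that leave out 1 mouse. The share of genes at an unadjusted p under 0.05, 5.32%, was 11.5% with array weights and 15.3% without the 4 arrays, and 4.61% to 7.08% when 1 mouse was left out. Of 82 genes checked in 18 settings, 74 kept their direction. The settings share most of their arrays and many of the genes were picked on these values, so that count is a description. Without the 4 arrays the sign turned for Adipoq (-0.004), Col1a1 (0.12), Epcam (0.124), Krt19 (0.035), S100a8 (0.523), Cry1 (0.513), Cbr3 (0.632) and Nqo1 (0.46). With array weights it turned for S100a8 (0.232) and Cry1 (0.035). When 1 mouse was left out, Cbr3 (-1.43 to 0.078) and Nqo1 (-0.546 to 0.077) turned without Hlth_1798, and Epcam (-0.76 to 0.085) and S100a8 (-0.764 to 0.332) without Hlth_1807. Adipoq (-0.014 to 0.982) turned without Veh_low_794, and Cry1 (-0.276 to 0.191) without Veh_low_794 (0.016) or Veh_low_1819. Of 48 list medians, 20 kept their sign in all settings, 17 turned without the 4 arrays and 27 turned in at least 1 other setting. The cause of these changes was not tested. No paired analysis was possible because the groups share no replicate numbers.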
